A study of Homo sapiens with 24 samples.

Results

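The human mitochondrial genome encodes 6 subunits of respiratory complexes III, IV and V: MT-CYB of complex III, MT-CO1, MT-CO2 and MT-CO3 of complex IV, and MT-ATP6 and MT-ATP8 of complex V. Their mRNAs were found by symbol in both deposited RNA-seq tables, as 6 of 61541 genes at 48 h and 6 of 19836 genes at 72 h. All libraries came from U2932, an established line of diffuse large B-cell lymphoma from a human patient, with bone marrow given as the tissue. The groups were 4 libraries of cells given PNA2 for 48 h, 4 of cells given siRNA for 48 h and 6 PBS controls at 48 h, then 5 PNA2 libraries and 5 PBS controls at 72 h. PNA2, a gamma peptide nucleic acid (a nucleic acid analogue on a peptide-like backbone), was added at a labelled 8 mM, a unit that is doubtful, to 200000 cells per well. The siRNA was electroporated at 500 nM. Both treatments carry the genotype label of a MYC knockdown and the controls that of wild type. No electroporated control is labelled, so the siRNA and the electroporation cannot be told apart. For the 4 siRNA libraries the line is entered under names that differ from U2932 in the last digit, but their treatment text names U2932. The labels do not say whether replicates were separate cultures, so p-values measure the spread between these libraries, which may be technical.

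The summed values per library at 48 h were 14881651 to 16033819 in PNA2, 12625943 to 16167951 in siRNA and 11121494 to 14460806 in PBS libraries. At 72 h the totals were 11253704 to 13687016 reads in PNA2 and 8215064 to 13282795 reads in PBS libraries. The 48 h values had been adjusted by the submitters within 2 sets of libraries, read here from tied values: set A (9 libraries: PNA2 1 and 2, all siRNA, PBS 1, 2 and 4) and set B (5 libraries: PNA2 3 and 4, PBS 3 and the 2 controls with the same column header, called unnumbered controls). MYC was not called lower in the libraries labelled PNA2. Its log2 change there was 0.24 at 48 h (SE 0.094, limma adjusted p = 0.096), the opposite sign to a knockdown, and -0.18 at 72 h (SE 0.45, adjusted p = 0.794), where the error leaves either direction possible. It was lower with siRNA (-0.81, adjusted p = 0.000318). The 6 B cell markers summed here, MS4A1, CD79A, CD79B, PAX5, CD22 and CD74, were present in every library. They made up 0.361% of the total in PNA2 replicate 2 at 48 h, against 0.572% to 0.594% in the other PNA2 libraries, 0.533% to 0.567% in siRNA and 0.462% to 0.52% in PBS libraries. CD22 stood at 484 there, against 2572 to 2760 in the other PNA2 libraries. CD79A was not low there, at 12644 or more in every PNA2 library and at most 11324 in PBS libraries at 48 h. PNA2 replicate 2 thus stood apart, as did PBS replicate 3 at 48 h, which was lowest of all 48 h libraries in the 6 mRNAs. For PNA2 against PBS at 48 h, the changes of the 5 mRNAs other than MT-ATP8 are given below without each. Those of MT-ATP8 are given without PBS replicate 3. The changes given for other named genes at 48 h rest on all libraries. CD3D, CD2, GNLY, S100A8, S100A9, PPBP and PF4, markers of T, natural killer, myeloid and platelet lineages, were at 0 in every library, and the summed lists for those lineages (6, 6 and 5 genes) stayed at or below 0.000403% of any total. The 6 stroma and epithelium markers made up 0.000888% to 0.002% in all libraries but PNA2 replicate 4 at 48 h, with EPCAM detected in each. In PNA2 replicate 4 they made up 0.00294%, with the collagen genes COL1A1 at 140.8, COL1A2 at 44.9 and COL3A1 at 25.3, against at most 23.1, 5.14 and 2.09 in any other 48 h library. At 72 h PNA2 replicate 2 had COL1A1 at 39.3, COL1A2 at 13.8 and COL3A1 at 2.12. The highest values in any other 72 h library were 31.6, 0 and 0. The part of these markers in the results was not tested. Changes without PNA2 replicate 4 at 48 h are given below. With any 1 of the 10 libraries left out at 72 h, all 6 mRNAs were called by limma. At 72 h the B cell markers took 0.554% to 0.65% of the total in PNA2 and 0.451% to 0.502% in PBS libraries. They did not move as one: 3 of the 6 were called higher and 1 lower, where 23.8% of all genes were called. MS4A1 ran from 1413 to 1904 in PNA2 and from 2029 to 2391 in PBS libraries. At 48 h CD79A was called higher in PNA2 than in PBS libraries (log2 change 0.47) and CD79B lower (-0.44), where 16.7% of all genes were called. The part of the B cell markers in the results was not tested.

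Mitochondrial DNA is transcribed from each strand as long precursors that are cut, largely at tRNAs, into separate RNAs, so that genes on one strand share their transcription and differ mainly in how long each RNA lasts. Complex III passes electrons to cytochrome c, complex IV passes them on to oxygen, and complex V uses the resulting proton gradient to make ATP. Each of the 3 complexes joins mitochondrially encoded subunits to many made from nuclear genes. MYC is known to promote the expression of nuclear genes for mitochondrial biogenesis.

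All 6 genes lie on the forward strand of chromosome M (GRCh38, GENCODE 29), from MT-CO1 at chrM:5904-7445 (1542 bases) and MT-CO2 at chrM:7586-8269 (684 bases) through MT-ATP8 at chrM:8366-8572 (207 bases), MT-ATP6 at chrM:8527-9207 (681 bases) and MT-CO3 at chrM:9207-9990 (784 bases) to MT-CYB at chrM:14747-15887 (1141 bases). Mitochondrial genes have no introns. MT-ATP8 and MT-ATP6 share 46 bases in different reading frames, which are 22.2% of MT-ATP8 and 6.75% of MT-ATP6, and are carried by one mature mRNA. MT-ATP6 shares 1 base with MT-CO3. The pair is printed because their relative values depend on how reads over the shared bases were assigned. Capitals mark the 46 shared bases, chrM:8527-8572, in the whole of MT-ATP8 (chrM:8366-8572) and in the first 120 bases of MT-ATP6 (chrM:8527-8646), both forward strand.
MT-ATP8: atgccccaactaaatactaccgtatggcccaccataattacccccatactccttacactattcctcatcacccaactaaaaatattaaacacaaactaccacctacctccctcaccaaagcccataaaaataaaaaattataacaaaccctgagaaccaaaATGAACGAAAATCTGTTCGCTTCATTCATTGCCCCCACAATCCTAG
MT-ATP6: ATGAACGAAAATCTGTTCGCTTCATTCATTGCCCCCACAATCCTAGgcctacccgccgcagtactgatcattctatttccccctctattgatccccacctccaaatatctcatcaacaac
The shared run opens with the ATG of MT-ATP6 and closes with the TAG that ends MT-ATP8. MT-CYB and MT-CO3 end in a lone T past their last whole codon, 1 base of a stop codon that the poly(A) tail is known to complete. MT-CO1 ends in AGA, MT-CO2 in TAG and MT-ATP6 in TAA.

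Levels were compared between genes as value per kilobase of gene, on the scaled values at 48 h. In PNA2 libraries at 48 h the order was MT-CO2 (114208 ± 29431 per kilobase, SD, n = 4), MT-CO3, MT-CO1 (76412 ± 16215), MT-ATP6, MT-CYB and MT-ATP8 (26549 ± 9306). The same order held in siRNA libraries, from 48096 ± 2508 per kilobase for MT-CO2 to 9460.4 ± 1877 for MT-ATP8 (n = 4), and in PBS libraries, from 53540.3 ± 14245 to 12309.7 ± 7551 (n = 6). In PNA2 and PBS libraries the ranges of all neighbours in that order overlapped, and in siRNA libraries those of MT-CO3 and MT-CO1 and of MT-ATP6 and MT-CYB did. At 72 h the order was MT-CO2 (182422 ± 26836 per kilobase), MT-CO3, MT-ATP8 (91907 ± 19636), MT-CO1, MT-CYB and MT-ATP6 (19710.3 ± 2363) in PNA2 libraries (n = 5), and the same in PBS libraries, with MT-ATP8 at 64587 ± 3375 and MT-ATP6 at 10790.7 ± 779.6 (n = 5). In PNA2 libraries at 72 h MT-CO2 lay apart from MT-CO3 and MT-CYB from MT-ATP6, and in PBS libraries MT-ATP8, MT-CO1, MT-CYB and MT-ATP6 each lay apart from the next. MT-ATP6 and MT-ATP8 thus held opposite places in the 2 tables.

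The first comparison asks how the 6 mRNAs differ between cells labelled PNA2 and PBS controls at 48 h. Of the 6, 5 were higher and 0 lower in PNA2 libraries, with PNA2 means 1.95 to 2.33 times the PBS means, where 16.7% of the 14136 genes tested were called (8.11% higher, 8.57% lower). The exception by the test was MT-ATP8. Values below are the deposited ones divided by a TMM library scale (a trimmed-mean correction for depth), and called means a Benjamini-Hochberg adjusted p under 0.05 over all genes tested. In bulk RNA, more RNA per cell and more cells of one kind cannot be told apart.

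MT-CYB, cytochrome b of complex III, stood at 69099.8, 37723, 51982 and 56267 in PNA2 replicates 1 to 4. It stood at 29903, 26470.0, 15529.7 and 26511 in PBS replicates 1 to 4 and 37855 and 29333 in both controls that carry no number. PNA2 replicate 2 (set A) fell just short of the highest control (set B), so the groups overlapped over both sets, while within each set every PNA2 library lay above every control. The means were 53768 ± 12935 in PNA2 and 27600.4 ± 7234 in PBS libraries (SD, n = 4 and 6), and the log2 change was 0.98 (SE 0.20, 95% CI 0.55 to 1.41, limma adjusted p = 0.00511). The exact permutation test, two-sided over 210 arrangements, had an unadjusted p = 0.00952.

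MT-CO1, the catalytic subunit of complex IV that holds the heme and copper site where oxygen is reduced, stood at 149975, 89392, 112318 and 119626 in PNA2 replicates 1 to 4. It stood at 68582, 57678, 40899 and 55631 in PBS replicates 1 to 4 and 75193 and 62931 in both controls that carry no number. All 4 PNA2 libraries lay above all 6 controls. The log2 change was 0.97 (SE 0.17, 95% CI 0.61 to 1.33, limma adjusted p = 0.00185), and the exact two-sided permutation p was 0.00476, the smallest that 210 arrangements can give. MT-CO2, the subunit that takes electrons from cytochrome c, stood at 107274, 61327, 70027 and 73845 in PNA2 replicates 1 to 4. It stood at 36315, 32900.0, 21529.6 and 36218 in PBS replicates 1 to 4 and 50978 and 41789 in both controls that carry no number. These groups were apart too, with a log2 change of 1.11 (SE 0.20, 95% CI 0.69 to 1.53, limma adjusted p = 0.00208) and the same exact permutation p of 0.00476. MT-CO3, the third core subunit of complex IV, stood at 102826, 44386, 75553 and 79889 in PNA2 replicates 1 to 4. It stood at 43326, 38928, 18156 and 34775 in PBS replicates 1 to 4 and 48016 and 39341 in both controls that carry no number. PNA2 replicate 2 lay below the first unnumbered control, which is of the other set, and within each set the groups were apart. The log2 change was 1.03 (SE 0.24, 95% CI 0.51 to 1.55, limma adjusted p = 0.0113), with an exact permutation p of 0.00952.

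MT-ATP6, the complex V subunit that forms the proton path beside the rotating ring, stood at 62087, 32206, 43090.2 and 45898 in PNA2 replicates 1 to 4. It stood at 21486, 19984, 9030.0 and 18568 in PBS replicates 1 to 4 and 25492 and 23537 in both controls that carry no number. The groups did not overlap. The log2 change was 1.25 (SE 0.23, 95% CI 0.75 to 1.75, limma adjusted p = 0.00288), and the exact permutation p was 0.00476. MT-ATP8, a short complex V subunit of the membrane part, stood at 8229, 3734, 4806 and 5214 in PNA2 replicates 1 to 4. It stood at 2711, 2314, 0 and 2096 in PBS replicates 1 to 4 and 4683 and 3484 in both controls that carry no number. PBS replicate 3 was deposited at -78.8 and set to 0, and the first unnumbered control lay above PNA2 replicate 2, though within each set all PNA2 libraries lay above all controls. The fitted log2 change of 2.77 (SE 1.65, 95% CI -0.74 to 6.27, limma adjusted p = 0.261) is set by that 0 and is no measure of size. The means were 5496 ± 1926 in PNA2 and 2548 ± 1563 in PBS libraries, a ratio of 2.16. Without PBS replicate 3 the log2 change was 0.81 (adjusted p = 0.0257), and within set A 1.23 (adjusted p = 0.0214).

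**Figure D1:**
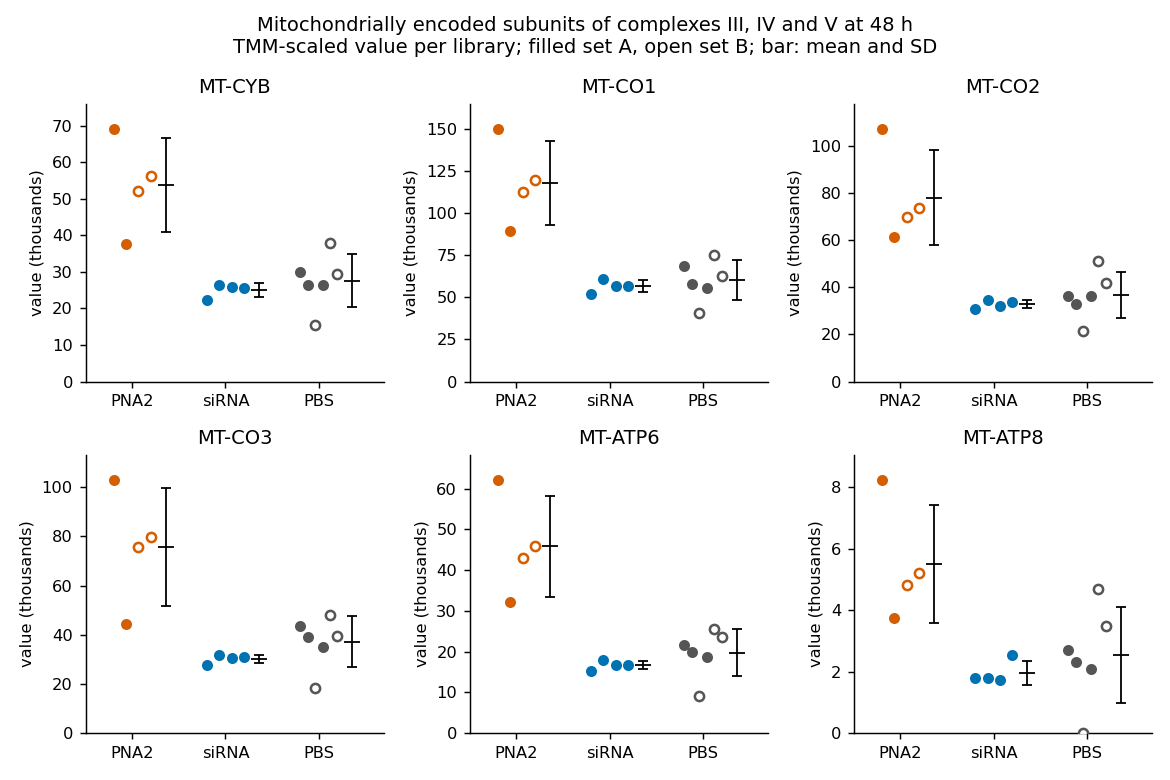
Scaled value, in units of 1000, of each of the 6 mRNAs in the 14 libraries at 48 h, by group; filled points are set A, open points set B, and bars give the mean and SD. MT-CO1, MT-CO2 and MT-ATP6 have all 4 PNA2 libraries above all 6 PBS libraries, the siRNA libraries lie above PBS replicate 3 and, for MT-CYB, MT-CO3 and MT-ATP6, below the other 5 controls, and PBS replicate 3 is the lowest open point in each panel.

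The 5 mRNAs other than MT-ATP8 were higher in PNA2 in both sets of libraries. From one fit with a separate change for each set, the log2 changes in set A were 0.89 for MT-CYB, 0.94 for MT-CO1, 1.21 for MT-CO2, 0.80 for MT-CO3 and 1.16 for MT-ATP6. In set B they were 1.07 for MT-CYB, 1.00 for MT-CO1, 1.01 for MT-CO2, 1.26 for MT-CO3 and 1.34 for MT-ATP6. No member's difference between sets was called (limma adjusted p 0.628 to 0.941 and unadjusted p 0.357 to 0.854 for the 6), where 2.57% of all genes were, from 2 PNA2 libraries in each set. With arrangements kept within the sets, a test added after seeing the data, the exact two-sided permutation p was 0.01 for each of the 5, the smallest that 100 arrangements allow, and 0.27 for MT-ATP8. MT-CO3 was not called within set A alone (adjusted p = 0.0733). PNA2 replicate 2 had the lowest summed share of B cell markers at 48 h. Without it the changes were 1.17 for MT-CYB, 1.12 for MT-CO1, 1.24 for MT-CO2, 1.31 for MT-CO3 and 1.45 for MT-ATP6. Without PBS replicate 3 they were 0.80, 0.86, 0.95, 0.82 and 1.03 in the same order. Without PNA2 replicate 4, the 48 h library with the most collagen reads, they were 0.94 for MT-CYB, 0.95 for MT-CO1, 1.12 for MT-CO2, 0.96 for MT-CO3 and 1.21 for MT-ATP6. All 5 were called in each case. Under quantile normalization all 5 were called at smaller changes, 0.55 for MT-CYB, 0.56 for MT-CO1, 0.70 for MT-CO2, 0.61 for MT-CO3 (adjusted p = 0.0486) and 0.85 for MT-ATP6.

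In siRNA libraries, where MYC mRNA itself was lower, none of the 6 mRNAs was called against PBS controls at 48 h, where 17.4% of the genes tested were (9.3% higher, 8.13% lower). By limma, 0 of the 6 also reached an unadjusted p under 0.05. The only other test of the 48 h values was the exact permutation test, given below within set A. MT-CYB stood at 22261, 26315, 25989 and 25648 in siRNA replicates 1 to 4, with a log2 change of -0.11 (SE 0.22, 95% CI -0.58 to 0.37, limma adjusted p = 0.788) over PBS. MT-CO1 stood at 52113, 60899.9, 56607 and 56758, with a change of -0.08 (SE 0.19, 95% CI -0.48 to 0.32, limma adjusted p = 0.803). MT-CO2 stood at 30819, 34692, 32251 and 33829, with a change of -0.14 (SE 0.22, 95% CI -0.60 to 0.33, limma adjusted p = 0.714). For MT-CO1 and MT-CO2 the siRNA libraries overlapped the set A controls (PBS replicates 1, 2 and 4), the set that holds all siRNA libraries. For MT-CYB all 4 lay below these 3 controls. The intervals span both signs, so these libraries leave a change of either direction within those bounds possible.

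MT-CO3 stood at 27540.2, 31546, 30305 and 30698 in siRNA replicates 1 to 4, with a log2 change of -0.28 (SE 0.27, 95% CI -0.86 to 0.30, limma adjusted p = 0.516). MT-ATP6 stood at 15329, 17877, 16779.7 and 16606, with a change of -0.23 (SE 0.26, 95% CI -0.78 to 0.32, limma adjusted p = 0.588). For these genes too all 4 lay below all 3 set A controls, with the smallest exact two-sided permutation p that 35 arrangements allow (p = 0.0286, unadjusted). The corresponding p was 0.0571 for MT-CYB, 0.171 for MT-ATP8, 0.2 for MT-CO2 and 0.4 for MT-CO1, and the fit within set A called neither MT-CO3 (-0.37, adjusted p = 0.29) nor MT-ATP6 (-0.26, adjusted p = 0.351). MT-ATP8 stood at 1782, 1776, 1735 and 2540.3, with a mean of 1958 ± 389 in siRNA against 2548 ± 1563 in PBS libraries. Its fitted change of 0.33 (adjusted p = 0.924) again rests on the 0 of PBS replicate 3, and was -0.45 (adjusted p = 0.21) without it.

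The direct comparison of PNA2 with siRNA at 48 h asks whether the reagents differ in these mRNAs. Of the 6, 5 were higher and 0 lower in PNA2 than in siRNA libraries, where 23.9% of all genes tested were called (11.5% higher, 12.4% lower). For each of the 6, including MT-ATP8, all 4 PNA2 libraries lay above all 4 siRNA libraries. The exact two-sided permutation p was 0.0286, the smallest that 70 arrangements allow, but these arrangements ignore the sets. All siRNA libraries are of set A, which holds only 2 PNA2 libraries. Within set A the exact permutation p was 0.0667 for each of the 6, the smallest that 15 arrangements allow. The log2 change was 1.08 (adjusted p = 0.00455) for MT-CYB. Among the complex IV mRNAs it was 1.05 (adjusted p = 0.00171) for MT-CO1, 1.24 (adjusted p = 0.00156) for MT-CO2 and 1.31 (adjusted p = 0.00467) for MT-CO3. For MT-ATP6 it was 1.48 (adjusted p = 0.00155), the largest of the called ones, with means of 45820.4 ± 12348 in PNA2 and 16648 ± 1044 in siRNA libraries (n = 4 each). MT-ATP8 was not called in this fit, at 2.44 (adjusted p = 0.406), although its groups were apart. The fit shares its spread with the controls. Fitted on the PNA2 and siRNA libraries alone, its change was 1.51 (adjusted p = 0.0057). Under quantile normalization 3 of the 6 were called, with MT-CYB at 0.48 (adjusted p = 0.0765) and MT-CO3 at 0.65 (adjusted p = 0.0588) no longer among them. With any 1 of the 8 libraries left out, 5 of the 6 were called. This comparison and the one with PBS use the same PNA2 libraries.

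At 72 h, in separate libraries, all 6 mRNAs were higher in PNA2 than in PBS libraries, where 23.8% of the 11985 genes tested were called (12.1% higher, 11.7% lower). The values are the deposited ones, read counts divided by a size factor. The fewest reads behind a value were 5370 for MT-ATP6 and 9868 for MT-ATP8, so counting error was at most 1.36% of a value and the spread between libraries was the larger part. MT-CYB stood at 89378, 75659.8, 65877, 57271 and 78508 in PNA2 replicates 1 to 5, against 40133, 42714, 41295, 35342 and 35456 in PBS replicates 1 to 5. The groups were apart, and the log2 change was 0.90 (SE 0.11, 95% CI 0.66 to 1.14, limma adjusted p = 0.000543).

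Of the complex IV mRNAs, MT-CO1 stood at 141409, 128609, 115722, 105954 and 140868 in PNA2 replicates 1 to 5, against 70336, 70758, 73355, 66354 and 62013 in PBS replicates 1 to 5. Its log2 change was 0.88 (SE 0.08, 95% CI 0.69 to 1.06, limma adjusted p = 0.000141). MT-CO2 stood at 143009, 129043, 124697, 94257 and 132877 in PNA2 replicates, against 66579, 64427, 66311, 54242 and 54819.9 in PBS replicates. It had the largest change of the 6 at this time, 1.02 (SE 0.11, 95% CI 0.78 to 1.25, limma adjusted p = 0.000261). MT-CO3 stood at 106906, 105765, 100351, 80495 and 107993 in PNA2 replicates, against 61059, 60393, 62756, 54953 and 49181 in PBS replicates, a change of 0.80 (SE 0.09, 95% CI 0.59 to 1.00, limma adjusted p = 0.00045). In all 3 genes every PNA2 library lay above every control, and PNA2 replicate 4 was the lowest of its group.

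MT-ATP6 stood at 14857, 13212, 12953, 11078 and 15014 in PNA2 replicates 1 to 5, against 7519, 7359, 8119, 7034 and 6712 in PBS replicates 1 to 5. The groups were apart, with a log2 change of 0.86 (SE 0.09, 95% CI 0.67 to 1.05, limma adjusted p = 0.000185). MT-ATP8 stood at 20532, 18636, 13333, 18086 and 24537 in PNA2 replicates, against 14116, 13523, 13909, 12501 and 12799 in PBS replicates. PNA2 replicate 3 lay inside the control range, and the other 4 PNA2 libraries lay above it. The change was 0.48 (SE 0.13, 95% CI 0.20 to 0.76, limma adjusted p = 0.0191), and 0.60 (adjusted p = 0.00123) without that library. The exact two-sided permutation p was 0.0317 for MT-ATP8 and 0.00794 for each of the other 5, the smallest that 252 arrangements allow. edgeR and DESeq2 on the recovered reads called all 6 as well, with log2 changes of 0.50 and 0.51 for MT-ATP8 and of 1.01 and 1.03 for MT-CO2. Under quantile normalization 2 of the 6 were called, and MT-CO1 and MT-CO3, among the 6 most abundant genes of every library, came to -0.07 and -0.01, since that method gives each rank the same value in every library.

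**Figure D2:**
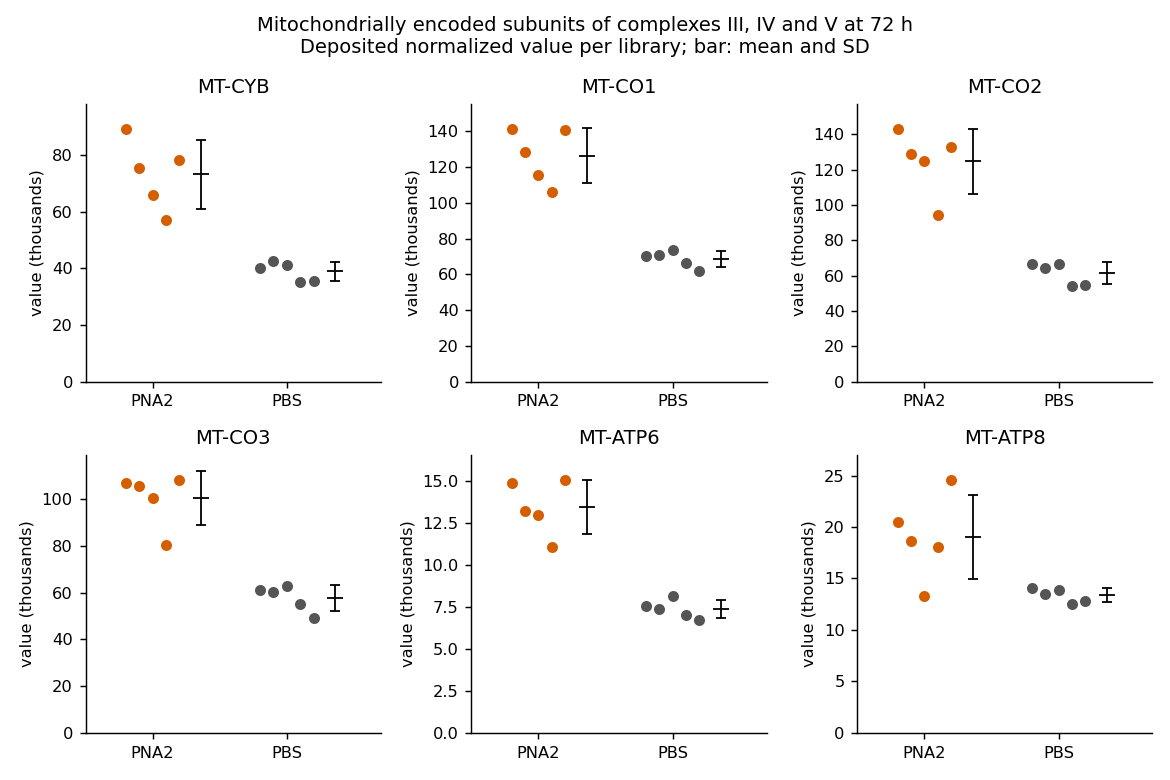
Deposited normalized value, in units of 1000, of each of the 6 mRNAs in the 10 libraries at 72 h, with PNA2 left of PBS; bars give the mean and SD. All PNA2 points lie above all PBS points except in MT-ATP8, where PNA2 replicate 3 (13333) sits among the controls.

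**Figure D3:**
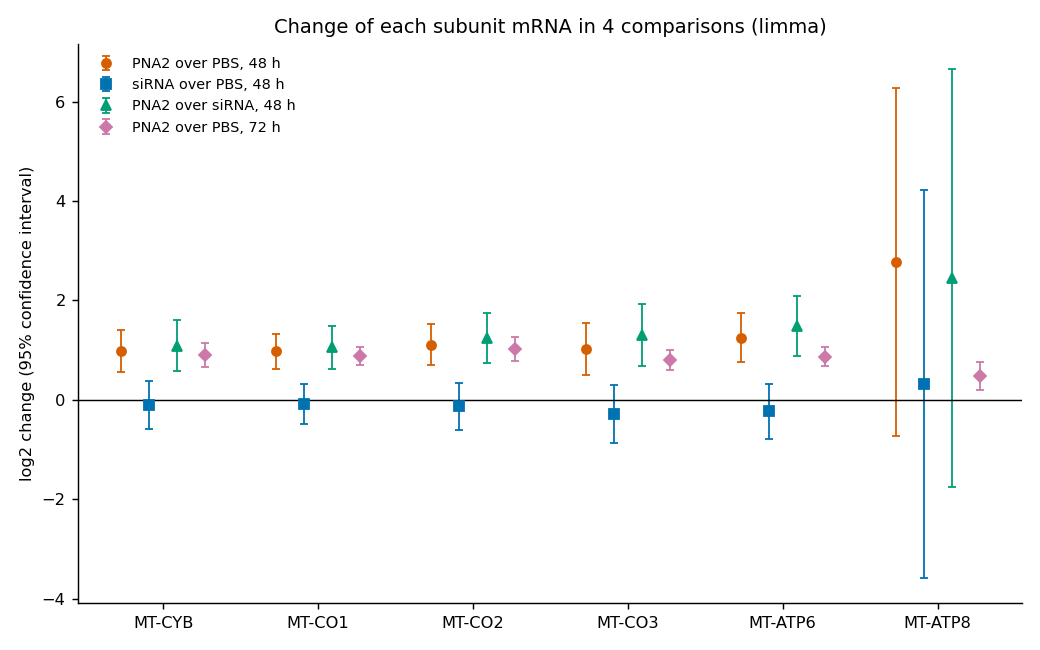
Log2 change of each mRNA with its 95% confidence interval from limma, in 4 comparisons. The PNA2 changes of MT-CYB, MT-CO1, MT-CO2, MT-CO3 and MT-ATP6 lie between 0.80 and 1.48 with intervals above 0, the siRNA changes lie near 0, and the 48 h intervals of MT-ATP8 are wide because 1 control was set to 0.

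As a share of each library's total, the 6 mRNAs made up 2.56% ± 0.55 in PNA2 (SD, n = 4), 1.2% ± 0.0707 in siRNA (n = 4) and 1.30% ± 0.304 in PBS libraries (n = 6) at 48 h. At 72 h, in a table of protein-coding genes alone, they made up 3.74% ± 0.457 in PNA2 and 2.21% ± 0.17 in PBS libraries (n = 5 each). The lowest PNA2 library lay above the highest control at both times, at 1.93% against 1.7% at 48 h and at 3.14% against 2.38% at 72 h. The shares of the 2 tables have different denominators and were not compared.

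Within the 13 mitochondrial mRNAs, the other 7 of which encode complex I, the 6 mRNAs took 52.5% ± 5.2 in PNA2, 58.6% ± 0.786 in siRNA and 58.7% ± 1.04 in PBS libraries at 48 h. PNA2 replicate 2 was at 44.9% and the other 3 PNA2 libraries at 54.2% to 56.6%, all below the lowest control at 57.2%. The 7 complex I mRNAs had a median log2 change of 1.37 in PNA2 at 48 h, with 6 higher and 0 lower, beside a median of 1.07 for the 6 mRNAs and of 0.00 for all genes. MT-ND1 changed by 1.66 (adjusted p = 0.000215) and MT-ND2 by 1.53 (adjusted p = 3.53e-05), while MT-ND6, the only mRNA made from the other strand, was at 0.63 and not called (adjusted p = 0.109). At 72 h the share was 51.4% ± 1.39 in PNA2 and 50.9% ± 0.484 in PBS libraries, and the complex I median was 0.72, with 7 of 7 higher, beside 0.87 for the 6 mRNAs. These shares are given as a description, without a test. The 2 mitochondrial ribosomal RNAs, in the 48 h table alone, rose in PNA2 as well, MT-RNR1 by 1.15 (adjusted p = 0.000308) and MT-RNR2 by 1.63 (adjusted p = 0.000725). In siRNA libraries 0 of these 9 RNAs were called by limma, and 0 had an unadjusted p under 0.05.

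**Figure D4:**
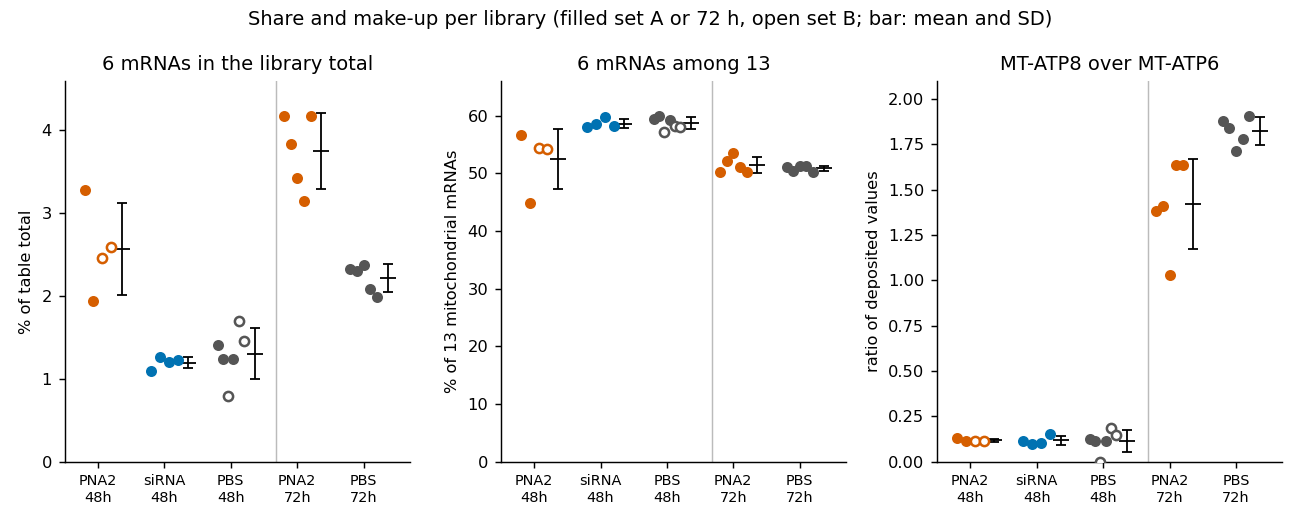
Share of the 6 mRNAs in the library total, their share among the 13 mitochondrial mRNAs, and the ratio of MT-ATP8 to MT-ATP6, per library; bars give the mean and SD. PNA2 libraries hold the larger share of the total at both times, PNA2 replicate 2 at 48 h stands low at 44.9% in the middle panel, and the ratio lies near 0.1 at 48 h and between 1.03 and 1.91 at 72 h.

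The ratio of MT-ATP8 to MT-ATP6 values was 0.118 ± 0.0096 in PNA2, 0.118 ± 0.0244 in siRNA and 0.114 ± 0.0619 in PBS libraries at 48 h, the last including the control at 0. At 72 h it was 1.42 ± 0.248 in PNA2 and 1.82 ± 0.0781 in PBS libraries, with every PNA2 library (1.03 to 1.63) below every control (1.71 to 1.91). One mature mRNA carries both reading frames, and how either table assigned reads to them is not given in the sources used here, so the level of either row is uncertain on its own. A nuclear copy of mitochondrial DNA on chromosome 1 may add to this. The unprocessed pseudogene MTATP6P1 (chr1:633696-634376, forward strand, GRCh38, GENCODE 29) matches MT-ATP6 at 98.5% of 681 bases, with 10 mismatches, and 28.0% of the 75-base windows of MT-ATP6 occur in it letter for letter.

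At 48 h MTATP6P1 stood at 9481 ± 2324 in PNA2, 3347 ± 55.1 in siRNA and 3932 ± 1083 in PBS libraries (SD, n = 4, 4 and 6), and was higher in PNA2 than in PBS libraries by a log2 of 1.29 (SE 0.20, adjusted p = 0.000968). Whether reads of these near-identical genes were split between the rows, with part of the MT-ATP6 signal under the other name, was not tested. None of the other copies of the 6 genes reached such a level. The neighbouring MTCO1P12 is identical to MT-CO1 at 98.7% of aligned bases and holds 36.6% of its 75-base windows, more than MTATP6P1 does for MT-ATP6. It stood at only 120.5 ± 36.9 in PNA2 and 76.5 ± 20.6 in PBS libraries. All copies of MT-CO1 together came to 0.12% of its mean value, against 20.4% for those of MT-ATP6. MTATP8P1, identical to MT-ATP8 at 97.6%, stood at 3.63 ± 1.67 in PNA2 and 1.71 ± 1.35 in PBS libraries. Of 187 such copies in the 48 h table, 5 passed the filter on low values. The 72 h table lists none of them, and the effect of the copies on the levels there was not tested.

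The nuclear partners of the 6 subunits moved less at 48 h. Of 38 nuclear-encoded subunits of complexes III, IV and V, 9 were higher and 3 lower in PNA2 than in PBS libraries. Of all genes tested, 16.7% were called there. The median log2 change of the 38 was 0.11 and none was above 0.44, so none reached the lowest of the 6 mitochondrial changes (0.97). ATP5MC2, a proton-carrying c-ring subunit of complex V, rose by 0.44 (SE 0.08, adjusted p = 0.00184), ATP5MJ by 0.37 and ATP5ME by 0.35. NDUFA4, a subunit found in complex IV, rose by 0.32 (adjusted p = 0.0162), COX7B by 0.29 and COX6B1 by 0.29. In complex III, UQCRH rose by 0.24, while UQCR11 and UQCRC1, a core subunit, fell by 0.34 and 0.28 (adjusted p = 0.032 and 0.0467). In siRNA libraries 1 of the 38 was higher and 4 lower, with a median of -0.08, where 17.4% of all genes were called. There ATP5MK fell by 0.49 and ATP5MC2 fell by 0.46 (adjusted p = 0.00193 and 0.00261), and ATP5MG rose by 0.36. Between PNA2 and siRNA 13 were higher and 1 lower, with a median of 0.20, where 23.9% of all genes were called.

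At 72 h 26 of the 38 were higher and 0 lower in PNA2, where 23.8% of all genes tested were called. The median log2 change of the 38 was 0.39. That is below the median of the 6 mRNAs (0.87), yet 11 of the 38 lay above MT-ATP8, the lowest of the 6. ATP5PO, a stalk subunit of complex V, rose by 0.74 (SE 0.16, adjusted p = 0.00682), COX6B1 by 0.67 (adjusted p = 0.00234) and UQCR11 by 0.59 (adjusted p = 0.0041). The median over all genes was -0.01. Differences between the 2 groups of subunits are given as medians and were not tested.

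**Figure D5:**
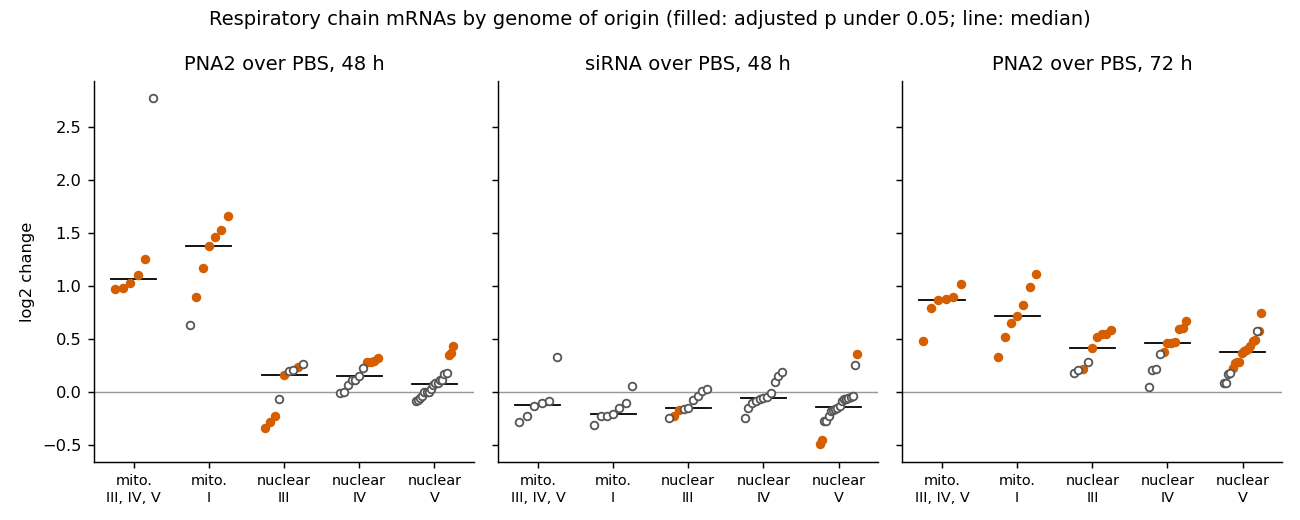
Log2 change of each mitochondrially encoded mRNA and each nuclear-encoded subunit mRNA of complexes III, IV and V, in 3 comparisons with PBS; filled points have an adjusted p under 0.05 and lines are medians. In PNA2 at 48 h the mitochondrial mRNAs lie apart from the nuclear ones, none of which exceeds 0.44. At 72 h 26 of the 38 nuclear mRNAs are higher as well, where 23.8% of all genes were called.

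Genes for building these complexes and for mitochondrial RNA metabolism were counted next. Their counts are to be read beside the 16.7% (PNA2), 17.4% (siRNA) and 23.8% (PNA2 at 72 h) of all genes called. Of 31 assembly factors, 30 were tested at 48 h, with 0 higher and 3 lower in PNA2: COX19 (-0.33), the complex III chaperone BCS1L (-0.30) and COX11 (-0.26), a copper chaperone for complex IV. With siRNA 0 were higher and 5 lower, among them BCS1L (-0.61, adjusted p = 0.000781), COX10 (-0.31) and SCO1 (-0.31). At 72 h 5 of 31 were higher and 4 lower in PNA2, with SURF1 at 0.56, COA3 at 0.53 and COX14 at 0.48. Of 23 mitochondrial RNA factors, 0 were higher and 3 lower in PNA2 at 48 h. They were POLRMT, the mitochondrial RNA polymerase (-0.49, SE 0.08, adjusted p = 0.00174), FASTK (-0.35, adjusted p = 0.0272) and TBRG4 (-0.24, adjusted p = 0.0459). POLRMT averaged 1188 ± 139.6 in PNA2 and 1658 ± 130.9 in PBS libraries. With siRNA 0 were higher and 5 lower, among them SUPV3L1, a helicase of mitochondrial RNA decay (-0.53), TFAM, which packages and activates transcription of mitochondrial DNA (-0.50, adjusted p = 0.0064), and TBRG4 (-0.41). Between PNA2 and siRNA, where 23.9% of all genes were called, 7 assembly factors were higher and 0 lower, with TTC19 at 0.49, COX15 at 0.42 and COX10 at 0.40. Of the RNA factors 4 were higher, among them SUPV3L1 (0.54) and TFAM (0.42), and 2 lower, among them PDE12 (-0.37). In PNA2 at 72 h 1 RNA factor was higher, HSD17B10, a part of mitochondrial RNase P (0.44), and 4 were lower, with FASTKD1 (-0.65) and FASTKD3 (-0.42) the furthest.

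The labels name both a total RNA and an mRNA kit without saying which libraries used which. At 48 h RN7SK, RMRP, RPPH1 and RN7SL2, small RNAs without a poly(A) tail, were at 0 in every library. RN7SL1 ran from 208 to 938 in PNA2, 188 to 242 in siRNA and 75.4 to 2188 in PBS libraries, with overlapping ranges. Of 69 replication histone genes, whose mRNAs also lack a poly(A) tail, 28 were tested. At 48 h 1 was higher and 0 lower in PNA2, where 16.7% of all genes were called. With siRNA 5 were higher and 0 lower against PBS, with a median log2 change of 0.40, where 17.4% were called. Between PNA2 and siRNA 0 were higher and 4 lower, with a median of -0.24, where 23.9% were called. At 72 h 3 were higher and 0 lower in PNA2, where 23.8% of all genes were called. The part of poly(A) selection in the change of the 6 mRNAs was not tested.

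The genes whose levels followed the mean log2 level of the 6 mRNAs most closely were named by Pearson's r, as a description across libraries that share groups. Only genes outside the mitochondrial genome and above a minimum mean value entered. At 48 h the mean of each library set was subtracted from every gene first, so r there describes differences within the sets. Over the 14 libraries at 48 h, among 9615 genes, these were LAMTOR2 (r = 0.929), CHCHD5 (0.928), SLC39A4 (0.901), MTATP6P1 (0.898) and TMEM164 (0.889). With MT-ATP8 left out of the mean, because of its 0 in 1 control, they were MTATP6P1 (0.986), MTND2P28 (0.945), ANKH (0.935), and ATP5MJ and LAMTOR2 (0.931 each). Over the 10 libraries at 72 h, among 9592 genes, they were PEA15 (0.961), TSC22D3 (0.956), FCGRT (0.954), ACTG1 (0.953) and STMN3 (0.949).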

How the data were processed

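The deposited 72 h values are a normalized signal, gene counts over one size factor per library, and whole reads came back in 100% of values within 0.01 (size factors 0.73 to 1.19). At 48 h the deposited values are in another unit, adjusted by the authors per gene and library set and not divided by depth. Of its genes 21877 have values that are not whole, and 5099 have values below 0, which were set to 0 here. The sets were read from ties, with equal values in 25.3% to 40.6% of 6826 low genes within a set and 0% between sets. The tools named are DESeq2, HTSeq 0.11.0, SAMtools 1.7, HISAT2 2.2.1 and Trimmomatic, with the GRCh38 build, per the submitters' processing notes. Strand use and the handling of reads with several matches in counting are not given in the sources used here.

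Genes that reached 10 in 4 or more libraries (48 h) or in 5 or more (72 h) were fitted with limma 3.58.1 (mean-variance trend, R 4.3.3) on log2 of the value plus 1, at 48 h after TMM scaling (edgeR 4.0.16) with group and set as terms, at 72 h with group alone. P-values were two-sided and adjusted over all genes. The script was tested on simulated data. DESeq2 1.42.0 and edgeR on recovered reads were alternatives at 72 h. Nuclear copies were aligned with Biopython 1.88. Named genes were the 6 mRNAs, MYC, up to 3 called genes with the largest change per list and the 5 genes of most similar pattern; the other mitochondrial RNAs, copies and markers named beside them were chosen after their values were seen. One B cell marker is not reported here. Members and lists were chosen with earlier results of these data known. The extraction text names 48 h for every library, so the 72 h label is in some doubt.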

Additional observations from a re-analysis of the deposited data

Results flagged for a closer look

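Within groups of 4 to 6 libraries, 45 sets of values of the 6 mRNAs and their shares were searched for a library far from the others, and chance marks about 1 in 20 groups. MT-ATP8 in siRNA replicate 4 at 48 h, at 2540.3, lay far above the other 3 siRNA libraries (1735 to 1782). MT-CYB in siRNA replicate 1 at 48 h, at 22261, lay below the other 3 (25648 to 26315). MT-CO3 in PNA2 replicate 4 at 72 h, at 80495, lay below the other 4 (100351 to 107993), and its log2 change was 0.87 without that library, against 0.80 with it.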

How the results depend on the processing

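Each result was recomputed under other scalings, filters, pseudocounts, model terms and libraries left out. At 48 h 5 or 6 of the 6 mRNAs were called higher in PNA2 than in PBS under each of 23 alternatives, with the smallest changes of the 5 under quantile normalization (0.55 to 0.85). MT-CO3 was lost within set A (log2 change 0.80), and MT-ATP8 was gained within set A (1.23), with the numbered libraries only, an alternative chosen after seeing the data (5.18), and without PBS replicate 3 (range over the libraries left out 0.81 to 3.58). In siRNA against PBS 0 of 6 were called under each of 22 alternatives, by limma throughout. Signs turned without rescaling for MT-CYB (0.12), MT-CO1 (0.14) and MT-CO2 (0.087), under quantile normalization for MT-CYB (0.067) and MT-CO2 (0.080), and for MT-ATP8 with the 2 groups alone (-0.29), within set A (-0.28), with sets aligned on their controls (-0.29) and among libraries left out (-0.45 to 0.65). In PNA2 against siRNA quantile normalization left 3 of 6 called, losing MT-CYB (0.48) and MT-CO3 (0.65), while MT-ATP8 was called with the 2 groups alone and within set A (1.51 each). At 72 h quantile normalization left 2 of 6 called, with MT-CO1 at -0.068, MT-CO3 at -0.0097, MT-CO2 at 0.11 and MT-ATP8 at 0.10, and scaling by the library total lost MT-ATP8 (0.36). Except where given, the cause was not tested.

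Whether replicate numbers pair the libraries was not settled. Correlations of same-numbered deviations ran from -0.0651 to 0.297 over 12 pairs at 48 h (median 0.039). Between different numbers they ran from -0.204 to 0.261 over 36 pairs (median -0.0066). At 72 h they ran from -0.0438 to 0.108 over 5 same-numbered pairs (median 0.060). Between different numbers there they ran from -0.0993 to 0.0616 over 20 pairs (median -0.013). At 48 h 5 of 12 libraries correlated best with their own number, and at 72 h 5 of 10. With a replicate block 5 mRNAs stayed called at 48 h and 6 at 72 h, and the uncalled siRNA changes of MT-CYB and MT-CO1 became 0.00073 and 0.014. At 48 h the block was fitted without the 2 unnumbered controls, so the part of the block alone cannot be told from these counts. The calls over all genes were then 840 in PNA2 against PBS, 977 in siRNA against PBS and 1813 in PNA2 against siRNA. They were 2358, 2464 and 3376 with all libraries and no block. Those counts were 1040 and 4588 with the 2 groups alone (PNA2 and siRNA, each against PBS). For siRNA against PBS they were 1201 without the set term, 3780 with sets aligned and 1217 to 2494 with a library left out (1484 without PBS replicate 1, 1217 without PBS replicate 2, and 1523, 1495 and 1442 without siRNA replicates 1, 2 and 4), and for PNA2 against siRNA 1785 without rescaling.

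Scaling shifted all genes. Without rescaling the median log2 change was 0.19 for PNA2 and 0.22 for siRNA against PBS, and the split of calls was 2014 higher and 167 lower for PNA2 (1146 and 1212 with TMM) and 2124 and 74 for siRNA (1315 and 1149 with TMM). Scaled by library totals, the medians were -0.12 for PNA2 against siRNA and -0.13 at 72 h, and the splits were 739 and 1986 for PNA2 and 1634 and 825 for siRNA against PBS, 1012 and 2917 for PNA2 against siRNA (1630 and 1746 with TMM), and 823 and 2601 at 72 h (1448 and 1401 as deposited). The fitted change of MT-ATP8 at 48 h is limited by 1 control set to 0.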
